A study of Mus musculus with 24 samples.

Results

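The genes described here were 10 mouse genes of the immediate early and Krüppel-like factor (KLF) families, Fos, Fosb, Jun, Junb, Atf3, Egr1, Egr2, Ier2, Klf2 and Klf4. They were 10 of the 52976 gene symbols in the count files, and each of them passed the filter on low counts in the wounds and in the cells. The set was chosen by name and selected on the fold changes of the cells, where Klf2 and Fosb were among the largest rises under the hydrogel, so the levels in the cells are given below as a description with no test. The rule for that choice named no wound comparison, though earlier results of these data were known when the members were chosen.

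Messenger RNA was sequenced from 24 libraries of a study of a peptide hydrogel made to release hydrogen under light, loaded with silver nanoclusters and with a hydrogenase that tolerates oxygen. Wounds of diabetic mice gave 6 groups of 3 libraries, those under the hydrogel (label Fmoc-KYF-AgNCs-3S1C-Hyd2, titles TEOA) and those of diabetic controls (titles Dia), each at day 1, day 7 and day 14. Cultures of RAW264.7, a mouse line of macrophage type, gave 2 groups of 3 libraries, with the hydrogel (titles H2) and without it (titles Without_H2). The label of the control cells gives lipopolysaccharide (LPS), which comes from bacterial walls and stimulates such cells. The labels of the treated cells name the gel and not LPS, with the endings Hyd3, Hyd4 and Hyd5 on their 3 libraries, whereas the design text describes LPS-induced macrophages in both arms. An effect of the gel and one of LPS therefore cannot be told apart in the cells by the labels alone. Strain, sex, age and the way diabetes was induced are not given in the labels, and nothing says that libraries of a group came from separate animals or cultures, so p-values measure the spread between libraries, which may be technical.

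Immediate early genes are transcribed within minutes of a stimulus such as a growth factor, injury or stress, from promoters that are bound by factors already in the cell, and their transcripts are short-lived. FOS and JUN family proteins pair through leucine zippers to form AP-1, which binds the DNA of many genes of proliferation and inflammation, while EGR1 and EGR2 are zinc finger factors and IER2 is a short-lived nuclear protein. ATF3, a stress-induced member of the wider family, restrains cytokine genes in macrophages. KLF2 and KLF4 are zinc finger factors that keep endothelium quiescent, with KLF2 raised by laminar flow. KLF4 is also needed for the skin barrier, which is formed by differentiating keratinocytes.

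Promoters of 5 members are shown. Among them are Klf2 and Fosb, which led in the cells, and Junb and Egr2, which were higher at day 7. Fos is shown too, which holds a pair of sites and passed in no wound comparison of the main edgeR test with all libraries. These promoters were picked to show the letters TGACG (or CGTCA on the other strand), which make up most of a cyclic AMP response element. Each run is the 250 bases before the transcription start in RefSeq (GRCm38.p6), 5′ to 3′ on the gene's strand, with those letters in capitals. Klf2 lies at chr8:72318812-72319061 (plus strand), Fosb at chr7:19310046-19310295 (minus), Junb at chr8:84978749-84978998 (minus), Egr2 at chr10:67537619-67537868 (plus, the 1 of its 5 listed starts with the most such sites) and Fos at chr12:85473640-85473889 (plus).
Klf2: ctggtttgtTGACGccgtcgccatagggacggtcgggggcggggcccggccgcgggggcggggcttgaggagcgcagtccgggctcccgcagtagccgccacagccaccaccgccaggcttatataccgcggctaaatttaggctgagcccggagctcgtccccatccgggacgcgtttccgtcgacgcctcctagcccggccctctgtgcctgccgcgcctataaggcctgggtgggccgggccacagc
Fosb: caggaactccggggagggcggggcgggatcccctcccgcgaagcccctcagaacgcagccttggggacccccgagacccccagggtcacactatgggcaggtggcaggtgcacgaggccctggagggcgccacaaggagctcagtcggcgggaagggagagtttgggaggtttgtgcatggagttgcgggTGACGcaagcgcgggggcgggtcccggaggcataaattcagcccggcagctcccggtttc
Junb: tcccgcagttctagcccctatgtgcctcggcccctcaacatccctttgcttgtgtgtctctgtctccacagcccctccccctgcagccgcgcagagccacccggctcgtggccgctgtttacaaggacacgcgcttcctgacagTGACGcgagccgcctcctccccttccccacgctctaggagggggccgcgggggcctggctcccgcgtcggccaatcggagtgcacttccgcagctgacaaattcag
Egr2: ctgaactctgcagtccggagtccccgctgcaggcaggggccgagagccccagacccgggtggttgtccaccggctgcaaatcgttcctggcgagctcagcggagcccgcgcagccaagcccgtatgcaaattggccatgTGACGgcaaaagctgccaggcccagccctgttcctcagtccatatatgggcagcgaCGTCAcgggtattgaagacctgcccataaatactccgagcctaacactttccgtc
Fos: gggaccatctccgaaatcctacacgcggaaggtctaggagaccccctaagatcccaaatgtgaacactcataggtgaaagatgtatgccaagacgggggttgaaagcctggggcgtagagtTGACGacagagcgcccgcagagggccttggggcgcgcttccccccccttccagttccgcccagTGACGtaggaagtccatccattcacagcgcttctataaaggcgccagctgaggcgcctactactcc

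RefSeq promoters were matched for 8 of the 10 members, and Egr1 and Ier2 were not matched. TGACG or CGTCA was found in 7 of these 8, all but Jun, against 19.8% of 27025 genes with a listed start and 26.7% of the 10574 starts at least as rich in G and C as the least rich of the members (58.4% G and C). The first base of the site lay 60 bases before the start in Fosb, 106 in Junb, 241 in Klf2, 232 in Klf4 and 7 in Atf3, and the pairs of sites lay 129 and 66 bases before it in Fos and 111 and 55 in Egr2. GGGCGG on either strand, the core of a GC box, was also found in 7 of 8, all but Junb, against 35.4% of genes. That count takes in every listed start of a gene, and the Egr2 promoter shown above does not hold this motif. The share among the GC-rich starts, counted start by start, was 73.1%. TATAAA on either strand was found in Fos alone, against 14.3% of genes and 2.91% of the GC-rich starts. The CArG box, the binding sequence of serum response factor, was found in Egr2 alone, against 1.62% of genes and 0.965% of the GC-rich starts. TGANTCA, the only form of the AP-1 site that was searched, was found in none of the 8, against 7.82% and 3.15%. No TGACG site overlapped another of these motifs.

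Total counts ran from 12.4 M to 27.1 M in wound libraries and from 17.9 M to 24.0 M in cell libraries. The median coefficient of variation over all genes tested was 35.0% in hydrogel and 37.6% in control wounds at day 1, 10.9% and 7.08% at day 7, and 11% and 34.8% at day 14. The 3 control libraries of day 7 were thus much closer to each other than those of days 1 and 14. Control day 14 replicate 1 held 48380 CPM (read pairs per 1 M counted, scaled by the trimmed mean of M-values method, TMM) of 8 fibroblast genes and 642 CPM of 8 basal keratinocyte genes, against at most 18340 and at least 4257 CPM in the other libraries of its group. Control day 1 replicate 1 held 76030 CPM of 8 adipocyte genes and 7292 CPM of 10 skeletal muscle genes, against at most 11170 and at least 137100 CPM in the others. Calls of members between hydrogel and control that were gained or lost without 1 of these libraries are given beside the results they touch. For the related and marker genes no values without these libraries are given. In the RAW264.7 libraries Cd68, Csf1r and Cd14, defining macrophage genes, stood at 437 CPM or more, whereas the tissue macrophage genes C1qa, C1qb and Ms4a7 had 2 counts or fewer. In bulk tissue fewer cells of a type and less RNA per cell cannot be told apart.

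In the wounds different members differed on different days, and 1 of them, Egr1, passed in opposite directions, lower at day 1 and higher at day 7. A gene was called at a Benjamini-Hochberg adjusted p below 0.05 in edgeR's quasi-likelihood test. At day 1, 2 of 10 members passed (Jun higher, Egr1 lower), where 7.55% of the 17592 genes tested passed (4.53% higher, 3.02% lower). At day 7, 3 of 10 passed, all higher (Junb, Egr1 and Egr2), where 21.6% of genes passed (9.86% higher, 11.7% lower). At day 14, 2 of 10 passed (Fosb higher, Klf2 lower), where 16.1% of genes passed (5.83% higher, 10.3% lower). The median log2 fold change of the 10 members was −0.87 at day 1, 0.46 at day 7 and 0.21 at day 14, against 0.04, 0.01 and 0.03 over all genes tested. Hydrogel and control libraries did not overlap for 3 members at day 1 (17.1% of genes), 7 at day 7 (70.2%) and 4 at day 14 (43.7%), so the share at day 7 stood at that of all genes.

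**Figure D1:**
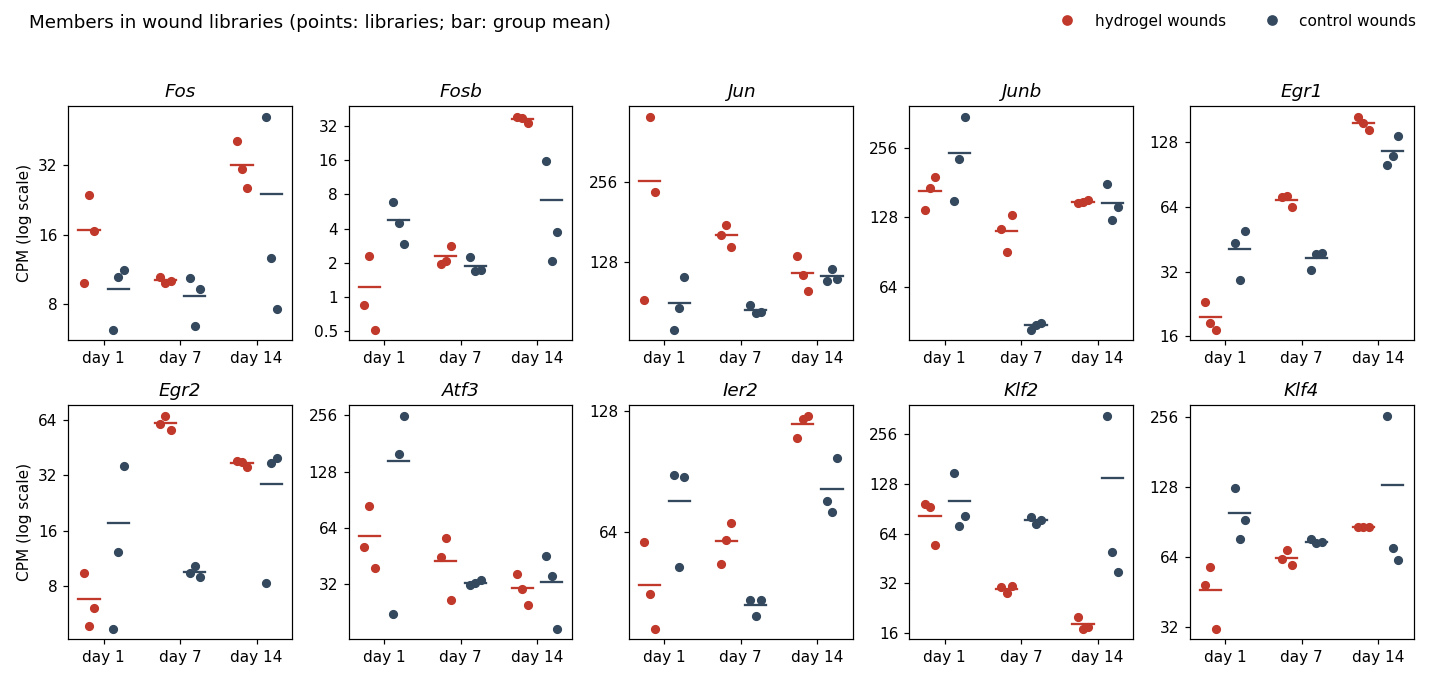
CPM of the 10 members in the 18 wound libraries on a log scale, 1 panel a gene, with hydrogel (red) left of control (dark) at each day. Points are libraries and bars are group means. Fosb in hydrogel wounds of day 14 stands between 33.7 and 38.6 CPM, above all control libraries, and Klf2 there between 16.9 and 19.9 CPM, below all of them.

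Fosb, which encodes a FOS family partner of the JUN proteins, had low counts at day 1 and was higher under the hydrogel at day 14. It stood at 0.859, 2.31 and 0.518 CPM in hydrogel wounds of day 1, against 6.86, 4.47 and 2.92 CPM in controls. All hydrogel libraries of day 1 were below all controls, on 10 to 44 counts each, and the difference did not pass (log2 fold change −1.92 ± 0.65 SE, adjusted p = 0.0781). At day 7 both groups lay close together, at 1.94, 2.07 and 2.81 CPM under the hydrogel against 2.23, 1.69 and 1.75 CPM in controls. At day 14 it stood at 38.6, 37.4 and 33.7 CPM under the hydrogel, against 15.7, 2.06 and 3.71 CPM in controls. The groups did not overlap, and the control values spread over a wide range because replicate 1 stood far above the others. Fosb was 5.13-fold higher at day 14 (log2 fold change 2.36 ± 0.61, adjusted p = 0.0186). Without control day 14 replicate 1 the log2 fold change was 3.66 (adjusted p = 0.00167), and the call was lost without hydrogel replicate 2 (adjusted p = 0.0567) or 3 (0.0576). At day 1 it passed without hydrogel replicate 2 (−2.81, adjusted p = 0.0474) or control day 14 replicate 1 (adjusted p = 0.0154).

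Fos, the founding member of the FOS family, passed at no day. It stood at 9.88, 23.9 and 16.5 CPM in hydrogel wounds of day 1, against 6.18, 10.5 and 11.2 CPM in controls, and the groups overlapped. Both groups lay between 6.44 and 10.5 CPM at day 7. At day 14 it stood at 40.7, 30.7 and 25.4 CPM under the hydrogel, against 52.1, 12.6 and 7.60 CPM in controls. Control day 14 replicate 1 was above every hydrogel library, and the other controls were below every one. The log2 fold change of Fos at day 14 was 0.42 ± 0.52 (adjusted p = 0.612) with all libraries and 1.67 (adjusted p = 0.0171) without control day 14 replicate 1. On the average of the days Fos was at 0.50 and did not pass, and it passed without that library (0.92, adjusted p = 0.00463). Fosb likewise did not pass on the average (0.23) and passed without both control libraries that stood apart (0.79, adjusted p = 0.0261).

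Jun, which encodes the JUN protein of AP-1, was the member that was higher under the hydrogel on the average of the days. At day 1 it stood at 91.9, 449.7 and 235 CPM under the hydrogel, against 71.4, 86.2 and 112 CPM in controls. Hydrogel replicate 1 fell within the control range and the other hydrogel libraries were above it. Jun rose 2.88-fold at day 1 (log2 fold change 1.53 ± 0.38, adjusted p = 0.0270). That call was lost without hydrogel replicate 2 (0.87, adjusted p = 0.113) or 3 (adjusted p = 0.0618), and without control replicate 1 (0.0538) or 2 (0.0712). At day 7 it stood at 162, 177 and 145 CPM under the hydrogel, against 88.2, 82.5 and 83.3 CPM in controls, with no overlap, yet the difference did not pass with a spread shared over all groups (0.93 ± 0.37, adjusted p = 0.0839). It passed without hydrogel day 1 replicate 1 (adjusted p = 0.0105) or 2 (0.0279). At day 14 the group means were nearly equal, at 36.5 ± 5.52 CPM per kilobase of exon under the hydrogel and 35.6 ± 1.94 in controls (SD, n = 3 each). On the average of the 3 days Jun rose (log2 fold change 0.83 ± 0.21, adjusted p = 0.0106). It was 1 of 3 members that passed there, with Klf2 and Klf4 lower, where 31.8% of genes passed (15.6% higher, 16.2% lower). The antisense gene Junos shares 232 of the 3189 exon bases of Jun, and counts made without strand cannot tell reads of the pair apart there.

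Junb, whose protein often restrains JUN, followed a different course in each arm. At day 7 it stood at 114, 90.4 and 131 CPM under the hydrogel, against 41.8, 44.0 and 44.8 CPM in controls. Every hydrogel library was at least 90.4 CPM, and the groups lay well apart. Junb rose 2.56-fold there (log2 fold change 1.36 ± 0.26, adjusted p = 0.00362). At day 1 it stood at 138, 172 and 192 CPM under the hydrogel, against 151, 228 and 349 CPM in controls, and at day 14 at 148, 149.6 and 152 CPM against 178, 125 and 141 CPM. The groups overlapped on both days. The difference at day 1 (−0.54 ± 0.26, adjusted p = 0.197) passed without control replicate 1 (−0.79, adjusted p = 0.0395).

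Atf3, the stress-induced family member, stood at 50.4, 84.1 and 39.1 CPM in hydrogel wounds of day 1, against 22.2, 159.7 and 254.5 CPM in controls. The lowest control library, replicate 1, was below every hydrogel library and the other controls were above every one. Atf3 passed at no day with all libraries (day 1 log2 fold change −1.33 ± 0.58, adjusted p = 0.165), and at day 1 it passed without control replicate 1 (−1.84, adjusted p = 0.0116). At days 7 and 14 the groups overlapped, between 18.5 and 56.8 CPM.

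Egr1 and Egr2 encode related zinc finger factors, and both were higher under the hydrogel at day 7. Egr1 stood at 23.0, 18.6 and 17.2 CPM in hydrogel wounds of day 1, against 43.4, 29.1 and 49.2 CPM in controls. At day 7 it stood at 71.1, 72.0 and 63.9 CPM under the hydrogel, against 32.5, 38.8 and 39.1 CPM in controls. At day 14 it stood at 167, 156 and 145 CPM under the hydrogel, against 100.1, 110.4 and 137 CPM in controls. The groups did not overlap on any of the days, with the hydrogel libraries lower at day 1 and higher at days 7 and 14. Egr1 fell 2.07-fold at day 1 (log2 fold change −1.05 ± 0.20, adjusted p = 0.00954) and rose 1.88-fold at day 7 (0.91 ± 0.20, adjusted p = 0.00693), whereas the difference at day 14 did not pass (0.43 ± 0.20, adjusted p = 0.147). The calls at days 1 and 7 held without any 1 of the 18 libraries.

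Egr2 stood at 9.45, 4.84 and 6.11 CPM in hydrogel wounds of day 1, against 4.69, 12.2 and 35.8 CPM in controls. The day 1 groups overlapped, and the difference (−1.38 ± 0.59, adjusted p = 0.152) was −0.32 without control replicate 3 and −1.83 (adjusted p = 0.0373) without control replicate 1. At day 7 it stood at 60.9, 67.4 and 56.6 CPM under the hydrogel, against 9.45, 10.3 and 8.94 CPM in controls. This was the largest called difference of any member on the log2 scale at days 1 and 7, a 6.44-fold rise (log2 fold change 2.69 ± 0.60, adjusted p = 0.00755). At day 14 the hydrogel libraries stood at 38.5, 38.0 and 35.4 CPM, against 8.30, 37.5 and 39.9 CPM in controls. The hydrogel values lay within the control range, of which replicate 1 was the low end. Markers moved with Egr2 at day 7: 6 of 8 basal keratinocyte genes passed as higher, and their summed level was 7869 to 8006 CPM under the hydrogel against 895 to 897 CPM in controls, with none of the 8 at 0. Skeletal muscle genes also summed higher at day 7, to 99370 to 113300 CPM under the hydrogel against 32890 to 33410 CPM in controls. Of the 10 muscle genes, 2 passed as higher and 0 as lower. The part of these cell types in the Egr1, Egr2 and Junb differences was not tested.

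Ier2 did not pass at a single day, though its difference changed sign. It stood at 60.5, 45.0 and 36.9 CPM in hydrogel wounds of day 1, against 88.9, 52.4 and 87.6 CPM in controls, and the groups overlapped. At day 7 the hydrogel libraries stood at 53.3, 61.2 and 67.5 CPM against 43.5, 39.6 and 43.4 CPM in controls, and at day 14 at 109.6, 122 and 124 CPM against 76.4, 71.9 and 97.6 CPM. On both of these days every hydrogel library was above every control. The log2 fold changes were −0.69 ± 0.22 (adjusted p = 0.0707), 0.52 ± 0.22 (0.102) and 0.53 ± 0.22 (0.111) at days 1, 7 and 14. The day 1 difference passed without control replicate 2 (adjusted p = 0.0334) or hydrogel replicate 1 (0.0169).

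Klf2 was lower under the hydrogel at day 14 and on the average of the days. At day 1 it stood at 97.1, 93.0 and 54.7 CPM under the hydrogel, against 149, 71.6 and 82.2 CPM in controls, and the groups overlapped. At day 7 it stood at 30.2, 28.1 and 30.6 CPM under the hydrogel, against 80.9, 73.0 and 76.8 CPM in controls. At day 14 it stood at 19.9, 16.9 and 17.4 CPM under the hydrogel, against 331, 49.2 and 37.5 CPM in controls. At days 7 and 14 every hydrogel library was below every control, and control day 14 replicate 1 stood far above all other libraries. Klf2 fell 7.70-fold at day 14 (log2 fold change −2.95 ± 0.62, adjusted p = 0.00656) and by a log2 fold change of −1.54 ± 0.34 on the average of the days (adjusted p = 0.00493). Without control day 14 replicate 1 the day 14 value was −1.26 and still passed (adjusted p = 0.0164). The average leaned on control libraries too, at −0.85 (adjusted p = 0.000166) without the 2 that stood apart, and at −0.98 without control day 14 replicate 1 alone. The day 7 difference (−1.38 ± 0.59, adjusted p = 0.102) passed without that same library (adjusted p = 0.00165).

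Endothelial markers moved with Klf2. Of 10 endothelial genes, among them Pecam1, Cdh5 and Kdr, 9 passed as lower at day 7 and 5 at day 14. Their summed level was 425 to 437 CPM under the hydrogel against 1632 to 1657 CPM in controls at day 7, and 123 to 170.1 CPM against 334 to 461 CPM at day 14, with none of the 10 at 0 in any wound library. Set against that sum, Klf2 stood at 6.91, 6.42 and 7.20 CPM per 100 CPM of endothelial genes under the hydrogel at day 7, against 4.95, 4.47 and 4.64 in controls. At day 14 it stood at 11.7, 11.2 and 14.1 under the hydrogel, against 77.1, 10.7 and 11.2 in controls. Relative to these genes Klf2 was thus higher in every hydrogel library of day 7, and at day 14 the groups overlapped. Macrophage markers moved as well, with 12 of 12 lower at days 7 and 14, summing to 377 to 428 CPM against 2806 to 2827 CPM and to 85.6 to 122 CPM against 585 to 4848 CPM. Fibroblast genes were lower as well, 8 of 8 at days 7 and 14, with sums of 1468 to 1705 CPM against 10450 to 10580 CPM at day 7 and of 2049 to 2630 CPM against 10630 to 48380 CPM at day 14. The highest of these sums was that of control day 14 replicate 1, the library with the most Klf2. Adipocyte genes were lower at day 7 in 8 of 8, at 1392 to 1470 CPM against 39840 to 40440 CPM, and 1 of 8 was higher at day 14. None of these macrophage, fibroblast and adipocyte genes was at 0 in a wound library. The part of these 4 cell types in the Klf2 difference, or in those of Junb, Egr1, Egr2 and Fosb on the same days, was not tested.

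**Figure D2:**
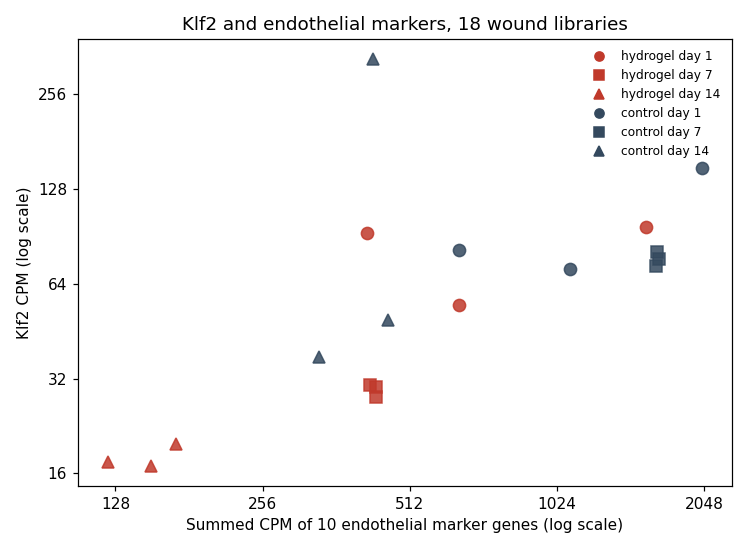
Klf2 (CPM, log scale) against the summed CPM of 10 endothelial genes (log scale) in the 18 wound libraries, with hydrogel in red, control in dark and the day by symbol. The 3 hydrogel libraries of day 14 sit at the low end of both axes, those of day 7 between 28.1 and 30.6 CPM of Klf2, and control day 14 replicate 1, at 331 CPM, stands apart.

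Klf4, the barrier factor of skin, differed less. It stood at 48.4, 57.8 and 31.3 CPM in hydrogel wounds of day 1, against 126, 76.4 and 92.5 CPM in controls, at 62.4, 68.6 and 58.8 CPM against 76.4, 73.0 and 73.7 CPM at day 7, and at 86.2, 85.9 and 85.8 CPM against 259, 69.7 and 62.0 CPM at day 14. Hydrogel libraries were below all controls at days 1 and 7 and within their range at day 14. None of the single days passed (day 1 log2 fold change −1.10 ± 0.41, adjusted p = 0.109), while day 1 passed without control day 14 replicate 1 (adjusted p = 0.00617). On the average of the days Klf4 fell just past the threshold (−0.64 ± 0.24, adjusted p = 0.0491), a call that was lost without 14 of the 18 libraries, each left out in turn, among them control day 14 replicate 1 (−0.32, adjusted p = 0.0773). Of 8 differentiated keratinocyte genes, 1 passed as lower at day 1, 5 as higher at day 7 (sums of 623 to 707 CPM under the hydrogel against 86.02 to 88.2 CPM in controls) and 0 at day 14, with none of the 8 at 0, and their part in the Klf4 values was not tested.

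**Figure D3:**
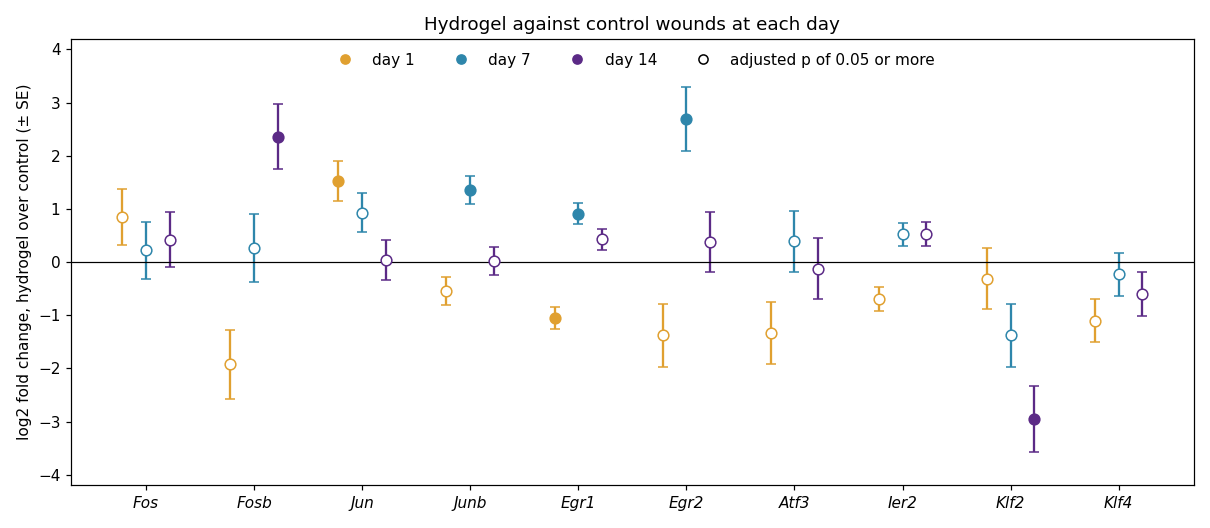
Log2 fold change of each member, hydrogel over control, at days 1, 7 and 14, with 1 SE from the edgeR fit. Filled points passed at an adjusted p below 0.05 and open points did not. Egr1 lies below 0 at day 1 and above 0 at days 7 and 14.

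The difference between days was tested directly by the interaction of hydrogel and day, in which 5 of 10 members passed, where 15.8% of genes passed. These were Egr1 (adjusted p = 0.00193), Junb (0.00788), Egr2 (0.0133), Fosb (0.0141) and Ier2 (0.0210). From day 1 to day 7 the hydrogel difference shifted upward by 4.07 ± 0.84 on the log2 scale for Egr2, 1.96 ± 0.29 for Egr1, 1.9 ± 0.36 for Junb and 1.21 ± 0.32 for Ier2. Between day 1 and day 14 it shifted upward by 4.28 ± 0.89 for Fosb, 1.48 ± 0.28 for Egr1 and 1.22 ± 0.32 for Ier2. No member passed for day 14 against day 7 in edgeR, and 3 had an unadjusted p below 0.05 (Junb −1.34, Egr2 −2.31 and Fosb 2.09 on the log2 scale). The call of Ier2 was lost without control day 1 replicate 3 (adjusted p = 0.0531) or hydrogel day 1 replicate 3 (0.0617). The interaction also passed for Klf4 (0.0124) without control day 14 replicate 1, and for Atf3 (0.0127) and Klf2 (0.0430) without control day 1 replicate 1. These comparisons share their day 1 libraries, so they are not independent of each other.

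These calls rest on a spread shared by all 6 groups. With only the compared groups in the model, 0 members passed in edgeR at days 1 and 14 (4 and 3 at an unadjusted p below 0.05) and 7 passed at day 7, where the libraries of each group lay close together. When the 3 libraries of a group at day 7 were summed to 1, 0 members passed in edgeR at any day, on the average or in the interaction, and 5, 2 and 2 had an unadjusted p below 0.05 at days 1, 7 and 14. DESeq2 called 4, 3 and 1 members at days 1, 7 and 14, with no adjusted p for Klf2, and limma-voom called 8, 7 and 4.

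Within the hydrogel arm, Egr1 and Egr2 were higher at both later days than at day 1. At day 7 against day 1, 2 of 10 members passed, both higher, where 18.3% of genes passed (7.76% higher, 10.5% lower): Egr1 (log2 fold change 1.82 ± 0.21, adjusted p = 0.000469) and Egr2 (3.19 ± 0.62, adjusted p = 0.00523). At day 14 against day 1, 4 passed as higher and 2 as lower, where 47.8% of genes passed (21.8% higher, 26.1% lower). Fosb rose most (4.87 ± 0.70, adjusted p = 0.000157), followed by Egr1 (2.99 ± 0.21, adjusted p = 1.99e-06), Egr2 (2.46 ± 0.60, adjusted p = 0.00413) and Ier2 (1.32 ± 0.23, adjusted p = 0.000428). Klf2 fell (−2.17 ± 0.60, adjusted p = 0.00850) and so did Jun (−1.15 ± 0.37, adjusted p = 0.0196). The call of Jun was lost without hydrogel day 1 replicate 2 (−0.49, adjusted p = 0.201), or without hydrogel day 14 replicate 2 or 3, and that of Fosb was larger without hydrogel day 1 replicate 2 (5.76).

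Within the control arm, Junb and Atf3 were lower at both later days than at day 1. At day 7 against day 1, 3 of 10 passed, all lower, where 31.6% of genes passed (15% higher, 16.6% lower): Junb (−2.48 ± 0.27, adjusted p = 5.64e-05), Atf3 (−2.16 ± 0.60, adjusted p = 0.0144) and Ier2 (−0.85 ± 0.22, adjusted p = 0.0108). At day 14 against day 1, Egr1 rose (1.51 ± 0.20, adjusted p = 0.000143) and Junb (−0.71 ± 0.26, adjusted p = 0.0439) and Atf3 (−2.14 ± 0.60, adjusted p = 0.0142) fell, 3 of 10 in all, where 32.4% of genes passed (16.7% higher, 15.7% lower). Without control day 1 replicate 3 Atf3 passed on neither day (−1.48, adjusted p = 0.0817, and −1.45, adjusted p = 0.0746), nor at day 7 without control day 7 replicate 1 (0.0524) or 2 (0.0501), nor at day 14 without control day 14 replicate 3 (0.0580). The call of Junb at day 14 was lost without 14 of the 18 libraries, each left out in turn. The log2 fold change of Klf2 at day 14 against day 1 was 0.46 with all libraries and −1.22 (adjusted p = 0.00658) without control day 14 replicate 1.

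Markers of most cell types differed between the same days within each arm. In hydrogel wounds of day 14 against day 1, the genes that passed as lower were 12 of 12 macrophage genes (sums of 85.6 to 122 CPM against 663 to 893 CPM), 10 of 10 endothelial genes (123 to 170.1 CPM against 418 to 1555 CPM), 7 of 7 neutrophil genes tested (33.1 to 105.8 CPM against 184 to 921 CPM) and 8 of 10 skeletal muscle genes (14270 to 25130 CPM against 108000 to 185700 CPM). In controls of day 7 against day 1, 8 of 8 fibroblast genes (10450 to 10580 CPM against 588 to 1475 CPM) and 8 of 12 macrophage genes (2806 to 2827 CPM against 425 to 1176 CPM) passed as higher. There 6 of 8 differentiated keratinocyte genes (86.02 to 88.2 CPM against 187 to 1021 CPM) and 5 of 10 muscle genes (32890 to 33410 CPM against 7292 to 232800 CPM) passed as lower. In controls of day 14, 8 of 8 fibroblast and 7 of 12 macrophage genes passed as higher, and 8 of 8 adipocyte and 6 of 10 endothelial genes as lower. Of the 9 neutrophil genes listed, up to 4 were at 0 in a library, and no gene of the other lists named here was at 0 in a wound library. The part of these cell types in the differences between days was not tested.

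Other genes of the same families and pathways are counted here against the 7.55%, 21.6% and 16.1% of all genes that passed at days 1, 7 and 14. Of 29 other immediate early genes tested, 11 passed as lower and 0 as higher in edgeR at day 1, 8 as higher and 1 as lower at day 7, and 1 as higher and 6 as lower at day 14, with list medians of −0.64, 0.46 and −0.05 on the log2 scale. At day 1 the lower ones included Zfp36, which destabilises cytokine messages (61.5 ± 10.2 CPM under the hydrogel against 144 ± 29.9 CPM in controls, SD, n = 3 each, adjusted p = 0.00527), and Plk3, a stress kinase (log2 fold change −2.13 ± 0.37, adjusted p = 0.00550). At day 7 the higher ones were led by Nr4a3, an orphan nuclear receptor (63.9 ± 23.1 against 3.18 ± 0.366 CPM, adjusted p = 0.000312), Egr3, the relative of Egr1 and Egr2 (65.8 ± 6.21 against 3.64 ± 0.371 CPM, adjusted p = 0.00363), and Myc, a growth regulator (62.2 ± 7.89 against 15.04 ± 2.17 CPM, adjusted p = 0.00238). At day 14 the lower ones included Dusp1, a phosphatase that ends MAP kinase signalling (59.4 ± 12.2 against 209 ± 181 CPM, adjusted p = 0.0260), and Rhob, a small GTPase (log2 fold change −1.02 ± 0.25, adjusted p = 0.0143).

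Of 11 other AP-1 family genes tested, 3 passed as lower at day 1, 1 as higher and 1 as lower at day 7, and 3 as lower at day 14. Maff, a small MAF protein, was lower at day 1 (31.0 ± 23.0 against 190.0 ± 72.6 CPM, adjusted p = 0.00838), as was Jund, the third JUN family gene (60.8 ± 12.5 against 159 ± 30.5 CPM, adjusted p = 0.0104). Fosl2, a FOS family gene, was higher at day 7 (131 ± 9.05 against 49.2 ± 2.78 CPM, adjusted p = 0.000721). Of 12 other KLF genes tested, 1 was lower at day 1, 1 higher and 1 lower at day 7, and 3 lower at day 14. The 2 of 12 at day 7 were a smaller share than that of all genes. Klf5, a factor of proliferating keratinocytes, was the higher one at day 7 (52.6 ± 11.6 against 19.8 ± 0.981 CPM, adjusted p = 0.0194), and Klf6 was lower at day 1 (−1.11 ± 0.30, adjusted p = 0.0370) and day 14 (−1.25 ± 0.30, adjusted p = 0.0132). Of 6 genes of serum response factor and its partners, 0 passed in edgeR at day 1, and 1 of 6, Elk3, was lower at days 7 and 14, near the share of all genes.

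Genes known to respond to KLF2 or KLF4 were mostly lower where they passed. Of 7 tested, 1 passed as higher and 3 as lower at day 1, 3 as lower at day 7 and 4 as lower at day 14, with list medians of −1.25, −1.81 and −2.05 on the log2 scale (0.04, 0.01 and 0.03 over all genes). S1pr1, a receptor of endothelium and lymphocytes, was lower on each day (8.21 ± 1.54 CPM under the hydrogel against 48.3 ± 10.4 CPM in controls at day 14, adjusted p = 0.00202), and Thbd, the anticoagulant thrombomodulin, was lower at day 14 (11.5 ± 2.07 against 47.7 ± 36.9 CPM, adjusted p = 0.0251). Vcam1, which KLF2 represses in endothelium, was also lower at days 7 and 14 (−2.07 ± 0.48 and −2.67 ± 0.49, adjusted p = 0.00838 and 0.00351). Several of these are genes of endothelium, whose markers were lower on the same days, and their part was not tested. Of 11 heat shock genes, 1, 3 and 2 passed as higher at days 1, 7 and 14 and 0 as lower. These counts were near the share of all genes that passed in either direction (7.55%, 21.6% and 16.1%), of which 4.53%, 9.86% and 5.83% passed as higher. Hspa1b, an inducible HSP70 gene, stood at 74.2 ± 4.13 against 13.6 ± 0.359 CPM at day 7 (adjusted p = 0.00320). Of 8 LPS-responsive genes, 3 passed as higher and 1 as lower at day 1, 1 as lower at day 7 and 5 as lower at day 14.

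Across the 18 wound libraries the members fell into no single pattern. The highest Pearson correlations of log2 CPM between members were 0.81 for Egr1 with Ier2 and for Fosb with Ier2, and 0.74 for Fosb with Egr1, while the lowest was −0.75 for Egr2 with Klf2. By the same measure, over genes other than members with a mean of at least 5 CPM, the genes most like Klf2 were Rhoj (0.979), Gfpt2 (0.972) and Cxcl13 (0.957), those most like Klf4 were Mkrn1 (0.852), Tspan5 (0.851) and Max (0.831), and those most like Fos were Snx33 (0.849), Crtc3 (0.803) and Csnk1g2 (0.794). The points share day, treatment and tissue makeup, and these values are descriptions. They include control day 14 replicate 1, which stood apart at 331 CPM of Klf2, and were not recomputed without it.

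In RAW264.7 cells the members showed a split that the choice of genes had used in part, and it is given with no test. Klf2 stood at 11.2, 9.25 and 7.48 CPM in hydrogel cells, against 1.55, 1.30 and 1.93 CPM in control cells (log2 fold change 2.52 ± 0.19, rank 6 of 12972 genes tested). Fosb stood at 10.4, 8.59 and 8.87 CPM in hydrogel cells, against 1.96, 1.69 and 1.80 CPM in control cells (2.34 ± 0.13, rank 14). Both were far above the control range in every hydrogel library. Ier2 stood at 154, 149 and 130.0 CPM in hydrogel cells against 94.96, 95.3 and 98.6 CPM in control cells, and Jun at 152, 157 and 153 CPM against 105, 102 and 109.5 CPM. Egr1 went the other way, at 32.1, 35.8 and 37.6 CPM in hydrogel cells against 72.1, 70.7 and 72.2 CPM in control cells (−1.02 ± 0.07). Hydrogel and control cells did not overlap for Klf2, Fosb, Ier2, Jun and Junb (higher) or for Egr1 and Atf3 (lower), and overlapped for Fos, Egr2 and Klf4. That was 7 of 10 members, where 75.9% of genes did not overlap and 72.5% passed.

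**Figure D4:**
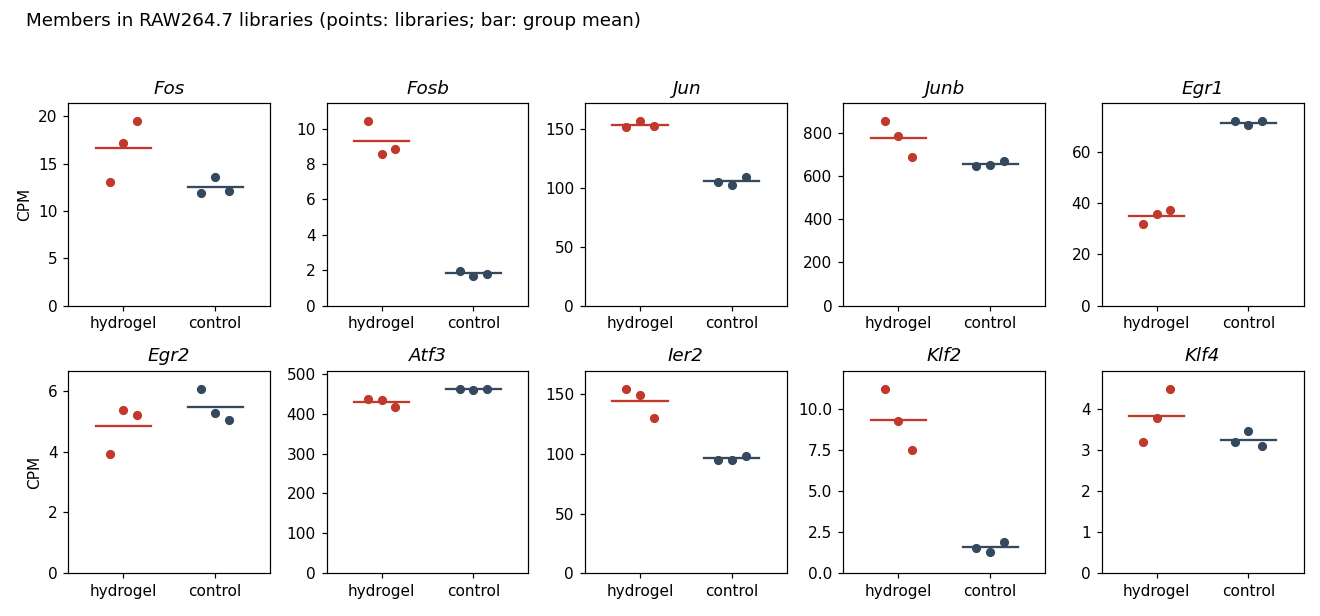
CPM of the 10 members in the 6 RAW264.7 libraries, hydrogel left of control, with points for libraries and bars for group means. Klf2 and Fosb lie between 7.48 and 11.2 CPM in hydrogel cells and below 2 CPM in control cells, and Egr1 is lower in hydrogel cells.

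The other members differed less in the cells. Junb was the most abundant per length, at 429.8 ± 46.6 CPM per kilobase of exon in hydrogel and 363 ± 7.55 in control cells (SD, n = 3 each), with Atf3 next at 199 ± 5.18 and 214 ± 0.634. Klf2 at 5.04 ± 1.01 and 0.863 ± 0.171 CPM per kilobase, and Fosb at 1.49 ± 0.159 and 0.291 ± 0.0220, were rare in both groups despite their folds. The log2 fold changes were 0.42 for Fos, 0.24 for Junb and for Klf4, −0.10 for Atf3 and −0.16 for Egr2. Among relatives, Myc stood at 80.6 ± 2.35 CPM in hydrogel and 20.1 ± 1.04 in control cells and Klf10, a TGF-beta-induced KLF, at 15.8 ± 1.63 and 5.12 ± 0.455, whereas Klf6 stood at 124 ± 14.3 and 263 ± 6.65. Of 10 LPS-responsive genes tested in the cells, 6 passed as lower and 0 as higher, where 72.5% of genes passed in either direction. Their sums were 33190 to 34290 CPM in hydrogel and 44570 to 44830 CPM in control cells. Among the lower ones, Il6 stood at 20.5 ± 1.36 CPM in hydrogel and 135 ± 1.85 CPM in control cells. Ptgs2 stood at 2937 ± 51.7 and 12860 ± 129 CPM, and Nos2 at 489 ± 7.14 and 743 ± 14.3 CPM.

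Levels per length ordered the members differently in wounds. In hydrogel wounds of day 14 Junb (82.8 ± 1.00 CPM per kilobase, SD, n = 3) and Ier2 (77.8 ± 5.19) led, and Jun (36.5 ± 5.52), Egr1 (34.8 ± 2.48), Klf4 (29.8 ± 0.0825) and Fos (25.5 ± 6.13) followed within or near the spread of their neighbours. Atf3 (14.1 ± 2.70), Egr2 (10.97 ± 0.477) and Klf2 (9.78 ± 0.847) were lower, and Fosb (5.86 ± 0.408) was last even at its peak. In control wounds of day 14 Junb (81.8 ± 15.1) led as well, and Klf2 spread over 75.4 ± 90.0. Klf2 and Klf4 stood above their RAW264.7 levels in each wound group, and Junb and Atf3 below theirs, on scales that were normalised separately for wounds and cells.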

How the data were processed

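RNA libraries, 18 of wound tissue and 6 of RAW264.7 cells, were compared. The authors deposited raw counts of read pairs for each gene name, and these counts were analysed here. The tools, from the submitters' processing notes, were Trim Galore 0.6.10, FastQC 0.11.9, HISAT2 2.2.1, SAMtools 1.9 and featureCounts 2.0.6, with the mm10 build. Per the file headers, reads were counted over exons of GENCODE M25 (GRCm38) without using strand, from alignments filtered for quality in a way that is not given in the sources used here. Overlapping antisense genes therefore cannot be separated.

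Samples were grouped by title. Genes were kept by filterByExpr (minimum count 10, minimum total 15), scaled by TMM and tested in R 4.3.3 with the edgeR 4.0.16 quasi-likelihood test (robust), with p-values adjusted by Benjamini-Hochberg over all genes, 17592 in the wounds and 12972 in the cells. The 18 wound libraries shared 1 model of 6 group means (12 residual degrees of freedom), and the 6 cell libraries had their own (4). Depth, given in the report, limits the precision of low counts. Promoters came from RefSeq (GRCm38.p6).

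The members and gene lists were chosen with earlier results of these data known. Each of the 10 members is named in every comparison. From each related list the text gives counts and names up to 4 genes a comparison by adjusted p, and for Fos, Klf2 and Klf4 the 3 genes most correlated with each. Of 174 list symbols, 171 were in the files. The alternatives were size factors by RLE, other filters (none, or a minimum count of 50), DESeq2 1.42.0, limma-voom (limma 3.58.1), models of the compared groups alone, a replicate block, summed libraries of day 7, and libraries left out. The edgeR fits of hydrogel against control, at day 7 in the wounds and in the cells, were also run on simulated counts that held known changes. The other comparisons and tools were not run on simulated counts.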

Additional observations from a re-analysis of the deposited data

Results flagged for a closer look

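The hydrogel difference changed between days 1, 7 and 14 for 5 members by the edgeR interaction test: Egr1 (adjusted p = 0.00193), Junb (0.00788), Egr2 (0.0133), Fosb (0.0141) and Ier2 (0.021). Of all genes tested, 15.8% passed it.

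On some days Fosb, Klf2 and Egr1 differed in opposite directions in wounds and cells, in every library of both comparisons, and the difference between wounds and cells was not tested. The log2 fold change of Fosb was −1.92 in hydrogel wounds of day 1, which did not pass, and 2.34 in cells, whereas at day 14 it was 2.36, passed and ran the same way as in cells. That of Klf2 was −1.38 at day 7, which did not pass, −2.95 at day 14, and 2.52 in cells. That of Egr1 was 0.91 at day 7, 0.43 at day 14, which did not pass, and −1.02 in cells, whereas at day 1 it was −1.05, passed and ran the same way as in cells. The values of the cells had entered the choice of these genes.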

How the results depend on the processing

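The direction of a member turned in 41 of 2401 recomputed values, none of them for a member whose value with all libraries had passed. Of these, 2 passed in the new direction. Among them was Klf2 for control day 14 against day 1 without control day 14 replicate 1 (−1.22, adjusted p = 0.00658 in edgeR). The 2401 include the values of the interaction, which have no direction and could not turn. The number of members called with all libraries was 2, 3 and 2 at days 1, 7 and 14, 3 on the average, 5 in the interaction, 2 and 6 for hydrogel days 7 and 14 against day 1, and 3 and 3 for control days 7 and 14 against day 1. DESeq2 gave 4 at day 1 and 1 at day 14, with no adjusted p for Klf2. With limma-voom the counts were 8, 7 and 4 at the 3 days, 6 on the average, 9 in the interaction, 9 for hydrogel day 7 and 5 for control day 7. With the compared groups alone they were 0, 7 and 0 at the 3 days and 0 for control day 14. With day 7 summed, which leaves fewer libraries, they were 0 at each day, on the average, in the interaction and for hydrogel and control day 7, and 1 for control day 14. Without both control libraries that stood apart they were 7 at day 1, 9 in the interaction and 4 for hydrogel day 7, and without a filter 1 for control day 14. RLE size factors and a minimum count of 50 kept every count within 1.5 times. No filter moved the median of all genes by 0.12 for hydrogel day 14 and by 0.11 in cells.

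Leaving out 1 library at a time, the counts ran from 1 to 4, 3 to 4 and 1 to 3 at the 3 days. They ran from 2 to 4 on the average and from 4 to 7 in the interaction. For hydrogel days 7 and 14 they ran from 2 to 3 and 5 to 8, and for control days 7 and 14 from 2 to 4 and 2 to 4. In the cells 7 members had a positive log2 fold change whichever library was left out.

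By their titles, samples of different groups shared only a replicate number. Same-numbered deviations correlated at −0.018 to 0.374 between arms of a day. Between control days 14 and 1 they correlated at 0.342, 0.085 and 0.316, and at −0.102 to 0.019 in the other comparisons of days within an arm. Libraries of different number were not compared in this way. With the replicate block the counts were 2, 3 and 2 at the 3 days, 2 on the average (Klf4 lost, adjusted p = 0.0534), 5 in the interaction, 2 and 6 for hydrogel days 7 and 14, and 3 and 2 for control days 7 and 14 (Junb lost, 0.0529). In the cells 7 members had a positive log2 fold change with the block.

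The values that turned are log2 fold changes. For hydrogel against control at day 14, Jun was 0 with RLE size factors and with DESeq2, −0.04 with limma-voom and −0.02 with the compared groups alone, and Junb −0.03, −0.03, and −0.04 with the compared groups alone, and 0 with day 7 summed. Klf4 was 0.24 with limma-voom, and without both control libraries Klf4 was 0.38, Atf3 0.16 and Egr2 −0.06. At day 1 Klf2 was 0.09 without them. For control day 14 against day 1, limma-voom gave −0.45 for Fosb, −0.64 for Klf2 and −0.25 for Klf4, and leaving out both libraries gave −0.09 for Fos, −0.35 for Fosb, −0.82 for Klf2 and −0.35 for Klf4. For control day 7 Klf2 was 0.01 without them. Without 1 library, the day 14 difference ran from −0.08 to 0.14 for Jun, −0.09 to 0.17 for Junb, −0.93 to 0.38 for Klf4, −0.06 to 0.70 for Egr2, −0.41 to 0.17 for Atf3 and 0 to 1.67 for Fos. It ran from −0.50 to 0.09 for Klf2 at day 1 and from −0.06 to 0.67 for Fosb on the average. For control day 7 it ran from −0.32 to 0.08 for Fos, −0.23 to 0.10 for Jun, −0.33 to 0.02 for Egr1 and −1.33 to 0.18 for Egr2. For control day 14 it ran from −0.72 to 1.03 for Fosb, −0.58 to 0.74 for Klf4, −1.22 to 0.91 for Klf2 and −0.10 to 0.23 for Ier2. The cause of these changes was not tested. Genes with few counts, such as Fosb at day 1, are limited by depth.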
